A study of Mus musculus with 12 samples.

Results

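The nuclear pore complex and the factors that carry cargo through it were followed here as 36 genes, 27 that encode nucleoporins and 9 that encode soluble transport factors. They are the rows of the deposited count table whose Ensembl gene IDs carry the 36 symbols, out of 56941 gene IDs in all, and every symbol was matched by 1 row. The samples were RAW264.7 cells, a transformed mouse macrophage line, grown on porous inserts and taken after 24 h. Compressed cells (n = 6) lay under an agarose cushion bearing a weight that pressed with 0.14 kPa, and control cells (n = 6) lay under the cushion alone, so that both groups shared the cell line, the insert, the agarose and the time. The comparison asks what static compression does to the transcripts of this machinery. The model is a single line under static load. Whether the 6 samples of each group were cultured separately is not stated in the labels or methods, so the p-values speak only of sample-to-sample spread, and that may be technical.

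Nuclear pores are large channels that span the nuclear envelope. They are built from a membrane anchor, stacked scaffold rings, a central channel lined with phenylalanine-glycine (FG) repeats, filaments on the cytoplasmic side and a basket on the nuclear side. Importins and exportins bind cargo and pass through the FG-rich channel, and the small GTPase Ran sets the direction of travel, being held in its GTP form in the nucleus by Rcc1 and in its GDP form in the cytoplasm by Rangap1. Cells that divide must assemble new pores as the nucleus grows, and several nucleoporins and transport receptors also act at the mitotic spindle and kinetochore.

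The stretches of promoter shown next come from windows around a member's start site that held a binding motif of E2F, NRF1 or ETS factors, which are known for their place at promoters of growth and cell cycle genes. They are shown as a description, and whether these motifs bear on the levels of the members was not tested. Only stretches lying wholly before the start are printed. Promoter windows of 300 bases (250 before to 50 after the start) came from RefSeq on the GRCm38.p6 build and matched 31 of the 36 members. None was matched for Cse1l, Nup35, Nup43, Nup85 and Seh1l. Capitals mark the motif, its distance is counted from the start site to its first base, and each line reads 5′ to 3′ on the strand of the gene.
Nup210 (E2F, chr6:91116879-91116918, minus strand, 76 bases before): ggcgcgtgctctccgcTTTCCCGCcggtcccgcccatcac
Nup107 (NRF1 core, chr10:117792746-117792786, minus strand, 65 bases before): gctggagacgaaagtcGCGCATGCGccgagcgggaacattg
Nup50 (NRF1 core, chr15:84923245-84923285, plus strand, 167 bases before): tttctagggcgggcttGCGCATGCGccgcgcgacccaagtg
Nup50 (NRF1 core, chr15:84923307-84923347, plus strand, 105 bases before): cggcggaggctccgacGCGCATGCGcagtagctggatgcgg
Ran (NRF1 core, chr5:129019935-129019975, plus strand, 205 bases before): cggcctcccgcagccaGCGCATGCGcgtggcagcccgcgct
Aaas (ETS core, chr15:102350782-102350821, minus strand, 46 bases before): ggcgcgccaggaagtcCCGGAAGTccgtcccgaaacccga
Nup54 (ETS core, chr5:92435252-92435291, minus strand, 76 bases before): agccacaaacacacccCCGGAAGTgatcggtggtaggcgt
Sec13 (ETS core, chr6:113740684-113740723, minus strand, 26 bases before): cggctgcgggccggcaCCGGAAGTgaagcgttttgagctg

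The NRF1 core GCGCATGCG stood in the windows of 4 of 31 members (12.9%), namely Nup107, Nup50, Nup62 and Ran, against 4.25% of the 9631 tested genes with a window and 1.95% of all 27025 genes with one. The ETS core CCGGAAGT stood in 5 windows (16.1%), those of Aaas, Nup155, Nup54, Rae1 and Sec13, against 9.75% of tested genes and 4.31% of all genes. Of 4 E2F words (TTTCCCGC, TTTCGCGC, TTTGCCGC and TTTGGCGC), only the Nup210 window held any, so that the share was 3.23%, against 4.75% of tested genes and 2.61% of all genes. The cell cycle homology region TTTGAA stood in 9 windows (29.0%, against 14.9% and 20.2%) and the CCAAT box (CCAAT) in 14 (45.2%, against 43.2% and 41.1%). All motifs were searched on both strands, and no motif holds the letters of another. These are matches of letters in a window and were not tested. Members with an NRF1 or ETS core included both Nup107, whose transcript fell by 0.75 on the log2 scale, and Sec13, which was not called.

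Libraries held 33460807 to 39103987 counts in compressed samples (median 35759008) and 37948795 to 40463545 in controls (median 38469169.5), so that each member had 441 to 30314 counts in a library. Macrophage identity was checked by 9 markers, all of which passed the low-count filter, with a summed level of 7917 to 9786 CPM in compressed libraries and 6423 to 6874 CPM in controls, 4 of them called higher and 3 lower. CPM are counts divided by a library size that was scaled by TMM and brought to a common total. Markers of fibroblasts, epithelium, T cells, B cells and glia summed to at most 0.37 CPM in every library, with Cd3e, Cd8a, Ms4a1 and Olig2 at 0 in all 12. Endothelial markers summed to 0.97 to 1.24 CPM in compressed libraries and 0.60 to 1.14 CPM in controls. Compressed replicate 6 stood apart from the other 5 compressed libraries. Its mean chi-square per gene against them was 174 to 233, against 3.59 to 17.3 among the other 5 and 2.22 to 8.44 among controls. The value would be near 1 with counting error alone. Its levels of long transcripts were lower, as the members show, and results were computed with and without it.

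All 36 members passed the low-count filter, and most were lower in compressed cells. Among 15001 tested genes, 31 of 36 members were called lower at an adjusted p of 0.05 or less (edgeR's quasi-likelihood test with Benjamini-Hochberg adjustment), while 21.9% of all tested genes were called lower. None was called higher: the count was 0 by edgeR, against 24.5% of all tested genes called higher. By DESeq2 the count was 0 as well, while 3857 of all genes were called higher. At an unadjusted p under 0.05 in edgeR it was also 0, and the count over all genes was not computed there. The log2 fold change, compressed over control, was below 0 in 36 of 36 members and had a median of -0.54, while over all tested genes the median was 0.02. It ranged from -0.97 for Ndc1 to -0.0029 for Sec13. Falls given without a unit are on this log2 scale. The falls were moderate, with 15 members lower by at least 1.5-fold and 0 by 2-fold. The share of all tested genes past these folds was not computed. At or below the members' median lay 8.3% of all tested genes. In 32 members every compressed library lay below every control library, which held for 17% of tested genes, and 0 members lay above, against 16.5% of tested genes. Sec13, Nup35, Ranbp2 and Ran were the 4 members whose groups overlapped. Members took 0.498 ± 0.056% of the counts in compressed libraries and 0.722 ± 0.0073% in controls (SD, n = 6 each). In bulk RNA, fewer cells of a kind, such as dividing cells, and less RNA per cell cannot be told apart.

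**Figure D1:**
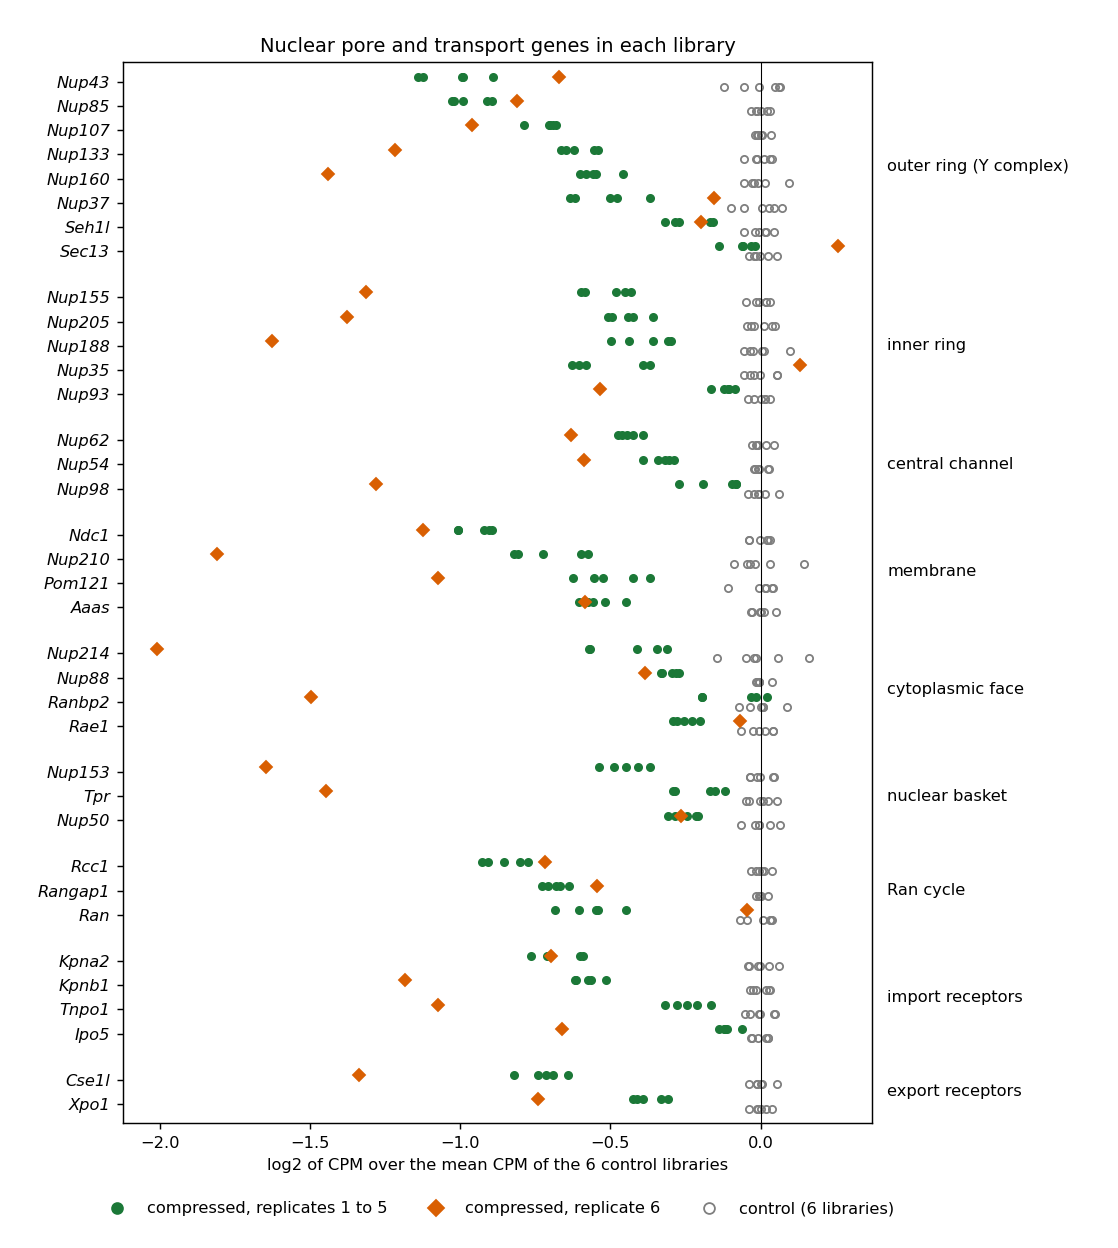
Level of each of the 36 genes in each library, as log2 of its CPM over the mean CPM of the 6 control libraries, with 1 row per gene sorted within each role, filled circles for compressed replicates 1 to 5, diamonds for compressed replicate 6 and open circles for the 6 controls. Compressed libraries lie left of all controls in 32 genes, and replicate 6 reaches furthest left for Nup214, whose level there was 31.7 CPM.

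The outer ring, or Y complex, is the scaffold that coats both faces of the pore, and 7 of its 8 members were called lower, with a median log2 fold change of -0.68. Nup43 (ENSMUSG00000040034), a propeller protein of the short arm of the Y, had 13.4 to 18.6 CPM in compressed libraries (median 14.9), against 27.2 to 30.9 CPM in controls (median 30.0). Its groups lay well apart (log2 fold change -0.96, SE 0.075, adjusted p = 2.16e-07). Nup85 (ENSMUSG00000020739), which builds the same arm, had 54.3 to 63.1 CPM in compressed libraries (median 57.4), against 108 to 113 CPM in controls (median 110.4). No compressed library reached the lowest control, and the level fell by 47.9% (log2 fold change -0.94, SE 0.046, adjusted p = 2.95e-09). Nup107 (-0.75, adjusted p = 5.07e-08) and Nup133 (-0.69, adjusted p = 3.31e-05), of the stem of the Y, fell as well. On the other arm, Nup160 fell by 0.66 (adjusted p = 7.32e-04) and Nup37 by 0.45 (adjusted p = 2.36e-04). Seh1l, which binds Nup85, had the smallest called fall of the ring, 0.23 on the log2 scale (adjusted p = 4.78e-04).

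Sec13 (ENSMUSG00000030298) was the exception in the outer ring. Its protein is shared with the COPII coat of secretory vesicles, and its transcript stood at 125 to 164 CPM in compressed libraries (median 133), against 133 to 143 CPM in controls (median 136). The groups overlapped (log2 fold change -0.0029, SE 0.061, adjusted p = 0.975). Replicate 6 was the highest compressed library, and without it the log2 fold change was -0.063 (adjusted p = 0.0619).

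Of the inner ring, the scaffold that joins the outer rings to the central channel, 5 of 5 members were called lower, with a median of -0.52. Nup155 (ENSMUSG00000022142), which links the ring to the membrane, had 50.4 to 92.8 CPM in compressed libraries (median 86.7), against 121 to 128 CPM in controls (median 126). The compressed libraries all lay below the controls, and replicate 6 was the lowest (log2 fold change -0.61, SE 0.12, adjusted p = 7.11e-04). Nup205 (ENSMUSG00000038759), a large adaptor of the ring, had 111 to 224 CPM in compressed libraries (median 208), against 278 to 297 CPM in controls (median 286). Here too the groups did not overlap (log2 fold change -0.56, SE 0.13, adjusted p = 0.00318), and without replicate 6 the log2 fold change was -0.45 (adjusted p = 1.16e-10). Nup188, the paralog of Nup205, fell by 0.53 on the log2 scale (adjusted p = 0.0219). Nup35, which binds the membrane, fell by 0.38 (adjusted p = 0.0124), and its groups overlapped because replicate 6 stood at 35.5 CPM, above every control, while the other compressed libraries lay below. Nup93, which holds the channel nucleoporins in place, moved least (log2 fold change -0.18, SE 0.069, adjusted p = 0.0473). That call was lost without compressed replicate 1, 3 or 5 and without each of the 6 control replicates in turn (adjusted p of 0.0513 to 0.0850), and held without compressed replicate 6 (adjusted p = 6.04e-04).

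The central channel is filled by FG nucleoporins, and 2 of 3 members were called lower, with a median of -0.37. Nup62 (ENSMUSG00000109511), the hub of the channel trimer, had 97.7 to 115 CPM in compressed libraries (median 110.4), against 148 to 156 CPM in controls (median 150.1). Its spread within each group was small next to the gap (log2 fold change -0.47, SE 0.045, adjusted p = 1.58e-06). Nup54 (ENSMUSG00000034826), its partner in that trimer, had 50.1 to 61.7 CPM in compressed libraries (median 59.9), against 74.1 to 76.8 CPM in controls (median 74.9). The groups did not overlap (log2 fold change -0.37, SE 0.052, adjusted p = 5.04e-05). Nup98 (ENSMUSG00000063550) encodes a precursor that is cut into Nup98, whose FG repeats set much of the permeability barrier, and Nup96 of the outer ring. It had 68.9 to 158 CPM in compressed libraries (median 152), against 163 to 175 CPM in controls (median 167). Every compressed library lay below every control, yet the test over all 12 libraries did not call it (log2 fold change -0.28, SE 0.16, adjusted p = 0.166). Replicate 6 alone made the low end, and without it the log2 fold change was -0.14 (adjusted p = 0.00122).

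All 4 members at the membrane were called lower, with a median of -0.71. Ndc1 (ENSMUSG00000028614), the transmembrane protein shared by pores and, in yeast, spindle pole bodies, had 61.3 to 71.9 CPM in compressed libraries (median 68.5), against 130.1 to 137 CPM in controls (median 134). This was the largest fall among the 36 members (log2 fold change -0.97, SE 0.047, adjusted p = 2.81e-09), and the level fell by 49.1%. Nup210 (ENSMUSG00000030091), a transmembrane nucleoporin with a large lumenal domain, had 44.7 to 105 CPM in compressed libraries (median 92.2), against 147 to 173 CPM in controls (median 154). The highest compressed library was well under the lowest control (log2 fold change -0.84, SE 0.16, adjusted p = 6.54e-04), and the log2 fold change was -0.70 without replicate 6. Pom121, which anchors the scaffold in the membrane, fell by 0.58 on the log2 scale (adjusted p = 1.98e-04). Aaas, which encodes ALADIN and is held at the pore by Ndc1, fell by 0.55 (adjusted p = 1.09e-07).

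At the cytoplasmic face, where messenger RNA leaves the pore, 3 of 4 members were called lower, with a median of -0.28. Nup214 (ENSMUSG00000001855), a docking site for Xpo1 and for the export helicase, had 31.7 to 103 CPM in compressed libraries (median 91.0), against 115 to 143 CPM in controls (median 126). Replicate 6 lay far below the other 5, which were at or above 85.9 CPM (log2 fold change -0.61, SE 0.21, adjusted p = 0.0304). The call was lost without control replicate 1 (adjusted p = 0.0601) and without control replicate 2 (adjusted p = 0.0533), and was kept without compressed replicate 6 (log2 fold change -0.44, adjusted p = 4.25e-07). Nup88 (ENSMUSG00000040667), which holds Nup214 at the pore, had 98.1 to 106 CPM in compressed libraries (median 103), against 127 to 132 CPM in controls (median 128). Its replicates were tight and the groups apart (log2 fold change -0.31, SE 0.037, adjusted p = 1.00e-05). Rae1, which binds Nup98 and messenger RNA, fell by 0.22 (adjusted p = 0.00154). Ranbp2, the cytoplasmic filament protein that binds Ran and acts as a SUMO ligase, stood at 113 to 323 CPM in compressed libraries (median 295), against 303 to 338 CPM in controls (median 319). It was not called (log2 fold change -0.24, SE 0.19, adjusted p = 0.330). Its groups overlapped also without replicate 6, where the log2 fold change was -0.083 (adjusted p = 0.0773).

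In the nuclear basket 2 of 3 members were called lower, with a median of -0.35. Nup153 (ENSMUSG00000021374), which binds the ring side of the basket and is needed to seat the rest of it, had 59.8 to 145 CPM in compressed libraries (median 135), against 182 to 193 CPM in controls (median 186). The groups did not overlap (log2 fold change -0.59, SE 0.16, adjusted p = 0.00896). Tpr (ENSMUSG00000006005), the coiled-coil protein that forms the basket filaments, had 140.0 to 351 CPM in compressed libraries (median 326), against 369 to 396 CPM in controls (median 382). Although no compressed library reached a control, the 12-library test did not call it (log2 fold change -0.35, SE 0.17, adjusted p = 0.112). Without replicate 6 it was called, with a smaller fold change (-0.20, adjusted p = 2.71e-05). Nup50, which helps release cargo from importin alpha, fell by 0.25 (adjusted p = 1.23e-04).

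**Figure D2:**
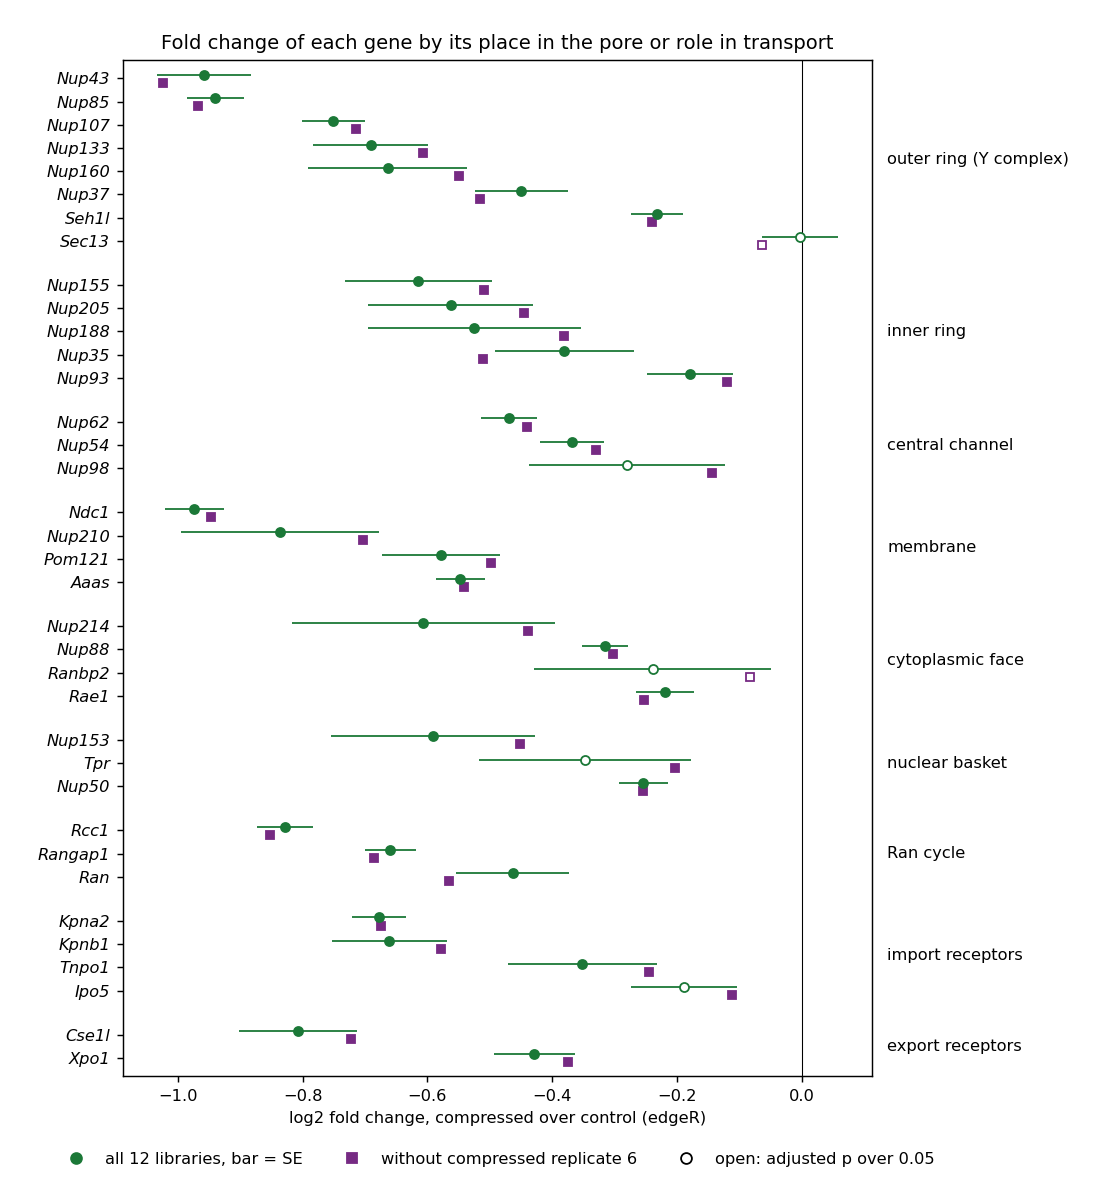
Log2 fold change of each of the 36 genes, compressed over control, from edgeR, by role in the pore or in transport. Circles and bars give the value and its SE over 12 libraries, squares the value without compressed replicate 6, and open symbols an adjusted p over 0.05. The values run from -0.97 (Ndc1) to -0.0029 (Sec13), and 31 circles are filled.

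The Ran cycle gives transport its direction, and all 3 members fell, with a median of -0.66. Rcc1 (ENSMUSG00000028896), the exchange factor on chromatin that loads Ran with GTP, had 66.6 to 77.0 CPM in compressed libraries (median 71.3), against 124 to 129.7 CPM in controls (median 126). It fell by 43.7%, the furthest of the soluble factors (log2 fold change -0.83, SE 0.045, adjusted p = 6.74e-09). Rangap1 (ENSMUSG00000022391), the activating protein through which Ran hydrolyses GTP, had 140.1 to 159 CPM in compressed libraries (median 146), against 229.7 to 236 CPM in controls (median 231). No overlap was seen (log2 fold change -0.66, SE 0.041, adjusted p = 2.32e-08). Ran itself (ENSMUSG00000029430) had 417 to 648 CPM in compressed libraries (median 459), against 638 to 687 CPM in controls (median 678). The 5 compressed libraries other than replicate 6 lay at or below 490.1 CPM, under all controls, and replicate 6 lay within the control range (log2 fold change -0.46, SE 0.091, adjusted p = 8.29e-04). Without that library the log2 fold change was -0.56 (adjusted p = 3.72e-11).

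Import receptors carry cargo with nuclear localization signals inward, and 3 of 4 members were called lower, with a median of -0.51. Kpna2 (ENSMUSG00000018362), an importin alpha that reads the classical signal, had 119 to 134 CPM in compressed libraries (median 124), against 196 to 211 CPM in controls (median 201). The replicates of each group were close and the groups apart (log2 fold change -0.68, SE 0.044, adjusted p = 3.37e-08). Kpnb1 (ENSMUSG00000001440), the importin beta that docks the complex at the pore, had 327 to 520.2 CPM in compressed libraries (median 492), against 724 to 759 CPM in controls (median 743). The groups did not overlap (log2 fold change -0.66, SE 0.092, adjusted p = 4.85e-05). Tnpo1, transportin 1, which imports RNA-binding proteins, fell by 0.35 (adjusted p = 0.0278), a call lost without control replicate 1 (adjusted p = 0.0515). Ipo5, which imports ribosomal proteins and histones, was not called (log2 fold change -0.19, SE 0.084, adjusted p = 0.0845), although its compressed libraries, at 317 to 479 CPM, all lay below the controls, at 489.7 to 509 CPM. Without compressed replicate 6 Ipo5 was called (-0.11, adjusted p = 5.71e-04).

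Both export receptors were called lower, with a median of -0.62. Cse1l (ENSMUSG00000002718), which returns importin alpha to the cytoplasm, had 91.5 to 148 CPM in compressed libraries (median 139), against 225 to 239.9 CPM in controls (median 230.2). In compressed cells the level fell by 42.9% (log2 fold change -0.81, SE 0.095, adjusted p = 9.81e-06). Xpo1 (ENSMUSG00000020290), the exportin for leucine-rich export signals, had 219 to 295 CPM in compressed libraries (median 277), against 356 to 375 CPM in controls (median 365). Every compressed library lay below every control (log2 fold change -0.43, SE 0.065, adjusted p = 9.62e-05). Taken by class, 23 of 27 nucleoporins were called lower (median -0.52) and 8 of 9 soluble factors (median -0.66).

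Per kilobase of transcript, Ran had the highest level of the 36 members, with a median of 189 CPM per kb in compressed libraries and 279.8 in controls. Ipo5 (102 in compressed and 111 in control libraries), Sec13 (98.3 and 101) and Kpnb1 (83.5 and 126) came next in both groups. Kpnb1 stood above Ipo5 and Sec13 in controls and below them in compressed cells. The lowest level was that of Nup133, at 4.74 CPM per kb in compressed and 7.36 in control libraries. Annotated lengths are of the longest coding transcript, so that the order holds only as far as that transcript is the one expressed.

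Compressed replicate 6 differed from its group by transcript length. Over the 36 members, its log2 level minus the mean of the other 5 compressed libraries had a Spearman correlation of -0.88 with annotated length, given as a description of genes that share 1 library. In the 15 members longer than 5000 bases, a limit chosen after seeing the data, replicate 6 was the lowest compressed library in 15 of 15, with a median difference of -0.93 (-1.57 to -0.37). Among the 21 shorter members it was lowest in 8 and highest in 9, with a median difference of -0.012 (-0.61 to 0.64). The spread followed: the coefficient of variation of a member had a median of 13.3% over the 6 compressed libraries, 4.31% over replicates 1 to 5 and 2.47% over the 6 controls.

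The fall of the members was present in both length classes and with that library left out. Of the 15 longer members 12 were called lower (median log2 fold change -0.58), and 14 without replicate 6 (median -0.45). Of the 21 shorter members 19 were called lower (median -0.46), and 20 without replicate 6 (median -0.52). In all, 34 of 36 members were called lower without replicate 6, while 32.2% of all genes tested in that fit were called lower. The median of the members was then -0.47, and 34 lay below all controls. The share of all genes lying below all controls was not computed without that library. None of the 36 was called higher (0 of 36), against 33.8% of all genes. When the trend with length was removed from every library, 35 were called lower, with a median of -0.53, and 0 higher. Calls over all genes rose as well in that fit, to 4025 lower (26.8%) and 4449 higher (29.7%).

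**Figure D3:**
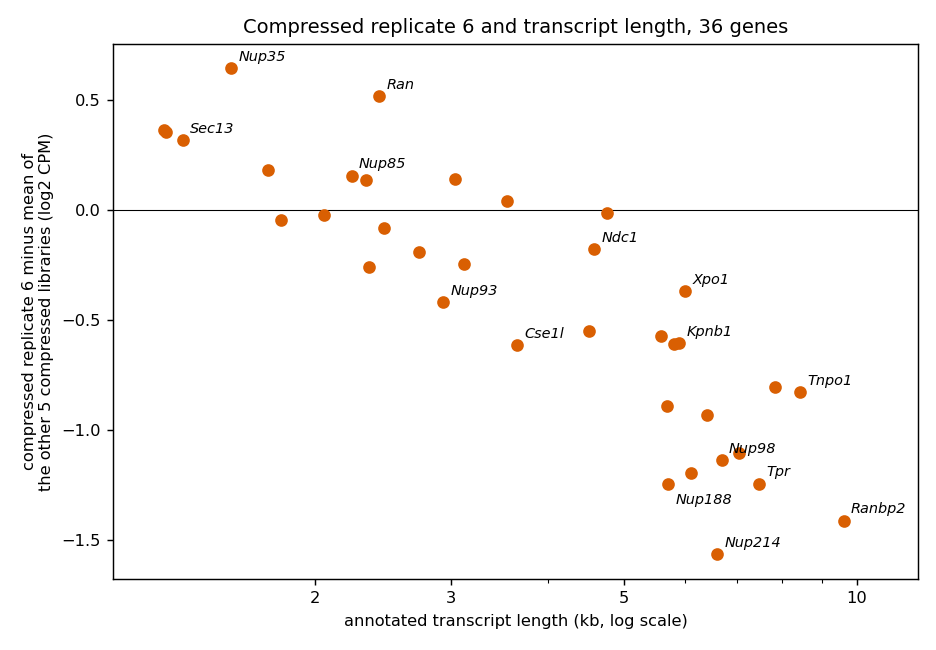
Log2 CPM of compressed replicate 6 minus the mean of the other 5 compressed libraries (vertical axis) against annotated transcript length in kb (horizontal axis, log scale), 1 point per gene for 36 genes. Points fall with length: Ranbp2, the longest with 9608 bases, lies at -1.41 and the lowest point is Nup214 at -1.57.

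Several members share sequence or exons with other genes, and their counts are less certain for it. Of the 50-base words of Nup35 transcripts, 80.5% also occur in Gm4353, which held 2681 counts in all libraries against 13037 for Nup35. For Kpna2 the share was 70.4% over 13 other genes, of which the closest, Gm10184, held 328 counts against 74906. Shares of 17.9% (Nup54), 14.2% (Ran) and 13.7% (Tnpo1) were found with Gm15790, Gm13461 and Gm6493. Pom121 overlaps Nsun5 on the opposite strand over 11.9% of its exons, and because the strand setting of the counting is not given, reads of the pair cannot be told apart. Nup133 shares 11.3% of its words with other genes. The remaining members share less than 10%.

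Transport genes outside the 36 were counted by list, as lists written from general knowledge but with earlier results of these data known. Their counts stand beside 21.9% of all tested genes called lower and 24.5% called higher. Without compressed replicate 6 these shares were 32.2% and 33.8%. Of 3 tested nucleoporins outside the list, only Gle1, the activator of the export helicase at the pore, was called (log2 fold change -0.79, SE 0.075, adjusted p = 1.23e-06), with 25.2 to 35.6 CPM in compressed libraries (median 34.4), against 54.1 to 58.7 CPM in controls (median 56.1). Ahctf1 (ELYS), which starts pore assembly on chromatin, had a log2 fold change of -0.27 and was not called (adjusted p = 0.194). Without compressed replicate 6 Ahctf1 was called too (-0.13, adjusted p = 0.00387). Nup42 stood at -0.085 (adjusted p = 0.142). Nup58, matched by its older symbol Nupl1, held 17 counts over all 12 libraries and did not pass the low-count filter. Whether that row holds the reads of the gene was not tested, so its level is not known here.

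Of 13 other import receptors tested, 6 were called lower and 1 higher, with a median of -0.18. With compressed replicate 6 left out, 8 were called lower and 1 higher, with a median of -0.10. Those with the largest falls were Ipo9 (-0.51, adjusted p = 0.00549) and Ipo11 (-0.46, adjusted p = 6.10e-05), both of the importin beta family. Among other importins alpha, Kpna3 was called (-0.19, adjusted p = 0.0265), while Kpna1 (-0.16), Kpna4 (-0.11) and Kpna6 (-0.065) were not. Without compressed replicate 6, Kpna1 was called (-0.10, adjusted p = 0.00396), and Kpna4 (-0.045) and Kpna6 (0.028, above 0) were not. Over all 12 libraries each of these lay nearer to 0 than Kpna2, at -0.68, and the differences between these genes were not tested. Snupn, which encodes snurportin and imports spliceosomal small nuclear RNPs, went the other way, with 14.8 to 20.6 CPM in compressed libraries (median 15.4), against 11.2 to 13.0 CPM in controls (median 12.5). It was higher in every compressed library than in any control (log2 fold change 0.39, SE 0.081, adjusted p = 0.00127). Kpna7 did not pass the filter.

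Of 5 other exportins, all had a log2 fold change below 0 and 4 were called lower, with a median of -0.33. The count without compressed replicate 6 was also 4 of 5, with a median of -0.22. Xpo4 had 37.6 to 69.9 CPM in compressed libraries (median 64.9), against 108 to 114 CPM in controls (median 112) and was the lowest of them (log2 fold change -0.85, SE 0.12, adjusted p = 5.00e-05). Xpo5, which exports microRNA precursors, fell by 0.53 (adjusted p = 8.56e-04). Xpo7 (-0.33) and Xpot, which exports transfer RNA (-0.21), were called at adjusted p of 0.0450 and 0.0467, and Xpo6, the exportin of actin, was not (-0.18, adjusted p = 0.267). These log2 fold changes were -0.22 for Xpo7, -0.14 for Xpot and -0.066 for Xpo6 without compressed replicate 6. The partners of Ran fell in 4 of 4 cases, with a median of -0.64. Nutf2, which carries Ran back into the nucleus, fell by 0.64 (adjusted p = 1.98e-06). Rangrf (-0.75, adjusted p = 1.68e-04) and Ranbp1, which helps Ran hydrolyse GTP (-0.63, adjusted p = 0.0150), moved by similar amounts, and Ranbp1 had its highest compressed value, 137 CPM, in replicate 6. Without that library its log2 fold change was -0.91.

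Of 17 messenger RNA export genes, 9 were called lower and 0 higher by edgeR, by DESeq2 and at an unadjusted p under 0.05, with a median of -0.21. Without compressed replicate 6, 13 were called lower and 1, Pcid2, higher (0.094, adjusted p = 0.00748). Alyref (-0.58, adjusted p = 0.00253), an adaptor of the TREX complex, Nxt1 (-0.54, adjusted p = 7.24e-04), the partner of the main export receptor, and Ddx39a (-0.54, adjusted p = 3.98e-05), a TREX helicase, fell furthest. Nxf1, the main export receptor itself, had 146 to 184 CPM in compressed libraries (median 175), against 172 to 183 CPM in controls (median 179) and was not called (log2 fold change -0.055, SE 0.054, adjusted p = 0.436). Of 4 SUMO pathway genes that act at the pore, Senp1, a SUMO protease found at the basket, was the only gene called (log2 fold change -0.62, SE 0.13, adjusted p = 0.00117). DESeq2 called 3 of these 4 lower, and edgeR without compressed replicate 6 called 4. Over all tested genes edgeR called 21.9% lower and 24.5% higher. Without compressed replicate 6 it called 32.2% lower and 33.8% higher. Of the 31565 genes to which DESeq2 gave a fold change, it called 3540 lower and 3857 higher. The count over all genes at an unadjusted p under 0.05 was not computed.

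Genes that mark proliferation moved in the same libraries. All 12 proliferation markers were called lower, with a median of -0.95, against 21.9% of all tested genes. Among them were Mcm5, a subunit of the replicative helicase (-1.17), Mcm2 of the same helicase (-1.13) and Plk1, a mitotic kinase (-1.10). Without compressed replicate 6 all 12 markers were called lower too, with a median of -0.89, against 32.2% of all genes in that fit. Relative to the control mean, their median log2 level was -1.02 to -0.81 in compressed libraries and -0.033 to 0.044 in controls. The median over the 36 members was -0.78 to -0.42 in compressed libraries and -0.0092 to 0.021 in controls. What part the proliferation genes had in the fall of the members was not tested.

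Of 12 genes of the nuclear envelope and lamina, 6 were called lower and 1 higher, against 21.9% and 24.5% of all tested genes. The median of the 12 was -0.31. Lmnb1 had 86.8 to 97.6 CPM in compressed libraries (median 92.4), against 178 to 198 CPM in controls (median 193), and this B-type lamin was the lowest of the 12 (log2 fold change -1.05, SE 0.045, adjusted p = 1.02e-09). Lbr, the lamin B receptor, fell by 0.84 (adjusted p = 2.88e-09), and Tmpo, a lamina-binding protein, by 0.75 (adjusted p = 1.28e-08). Lmna, the A-type lamin, fell by 0.17 (adjusted p = 0.00832). Sun1, which joins the lamina to the cytoskeleton across the envelope, was called higher (log2 fold change 0.28, SE 0.10, adjusted p = 0.0302), and its paralog Sun2 lower (log2 fold change -0.36, SE 0.066, adjusted p = 5.46e-04). Without compressed replicate 6, 9 of the 12 were called lower and 2 higher, Sun1 (0.37) and the giant linker Syne1 (1.04, adjusted p = 1.10e-07). In that fit 32.2% of all genes were called lower and 33.8% higher.

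**Figure D4:**
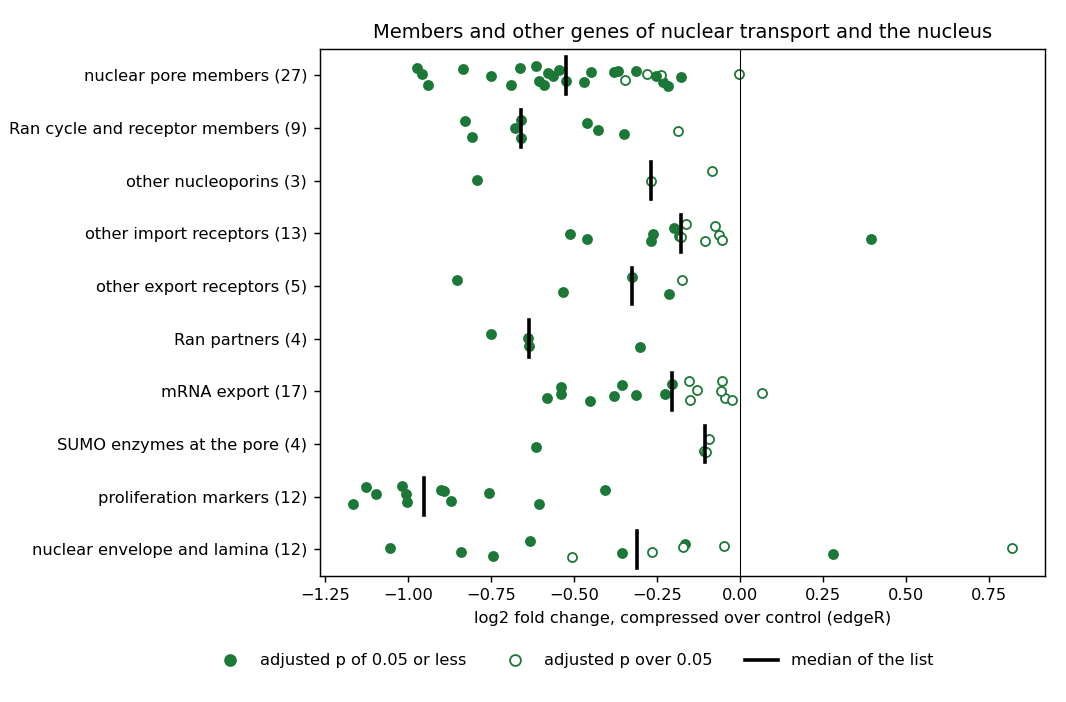
Log2 fold change of every tested gene in 10 groups of genes, with compressed set over control, with the number of tested genes in brackets, filled circles for an adjusted p of 0.05 or less, open circles for the rest and a bar at the group's median. The medians run from -0.95 (proliferation markers) to -0.11 (SUMO enzymes), and the pore members lie at -0.52.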

How the data were processed

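mRNA-enriched, directional libraries of 6 compressed and 6 control RAW264.7 samples were sequenced. Alignment by the authors was with STAR 2.7.2, and GRCm39 is the build in the submitters' processing notes. The deposited values are raw whole-number counts per Ensembl gene ID, with 1 column per library matched by its label. Which program counted the reads, with which strand setting and annotation release, is not given in the sources used here. Gene names, transcript lengths and the exon positions behind the overlaps between genes came from GENCODE M21 (GRCm38). They were matched by ID for 52000 of 56941 IDs, which hold 99.5% of the counts. Promoter windows came from RefSeq (GRCm38.p6).

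The tests ran in R 4.3.3, limma 3.58.1 and edgeR 4.0.16, as follows: filterByExpr (minimum count 10, groups of 6), TMM scaling and the quasi-likelihood F test on condition alone, with Benjamini-Hochberg adjustment over 15001 genes and calls at 0.05. Each SE is the size of the log2 fold change divided by the root of its F statistic. A prior count of 2 was used for log2 CPM. The procedure was also run on simulated data, with the outcome not reported here. The simulated counts were drawn from the count model that the test itself assumes, so that model was not checked. They held no library set apart by transcript length, so a case like compressed replicate 6 was not covered. Files were joined and drawn in Python 3.11.15 with pandas 2.3.3 and matplotlib 3.10.9. Alternatives were DESeq2 1.42.0, RLE factors, library size alone, no filter, replicate number as a block, only genes with mean normalized counts above 50, removal of the length trend, an adjusted p of 0.01, glmTreat against 1.2-fold and leaving out each library. Over all genes, the spread between libraries of a group exceeded counting error, although some members varied between controls by no more than counting error.

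Members and gene lists were chosen with earlier results of these data known. Values in full were given for the 2 members of each role with the largest absolute log2 fold change, for any member against the common direction (there was none) and for Ran, Kpnb1, Xpo1 and Nup98. Values in full of further members and of genes outside the list were added after seeing them.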

Additional observations from a re-analysis of the deposited data

Results flagged for a closer look

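For each of the 36 members and each group of 6 libraries, the gap between the most extreme library and its nearest neighbour was compared with the range of the group (Dixon's test against its critical value). For a single group chance gives about 1 in 20 past that value. The genes share the same libraries, so the groups are not independent and their count is a description. Of 72 groups, 24 passed the critical value, and 22 of these were compressed replicate 6, in 19 as the lowest library and in 3 as the highest.

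Replicate 6 was the lowest of the compressed libraries by that measure at 18.4 CPM for Nup133, 40.9 for Nup160, 89.3 for Nup93, 50.4 for Nup155, 59.4 for Nup188 and 111 for Nup205. In the central channel it was lowest at 97.7 CPM for Nup62, 50.1 for Nup54 and 68.9 for Nup98. Elsewhere in the pore it was lowest at 44.7 CPM for Nup210, 31.7 for Nup214, 113 for Ranbp2, 59.8 for Nup153 and 140.0 for Tpr. Among receptors it was lowest at 327 CPM for Kpnb1, 317 for Ipo5, 179 for Tnpo1, 219 for Xpo1 and 91.5 for Cse1l. It was the highest compressed library at 164 CPM for Sec13, 35.5 for Nup35 and 648 for Ran, all 3 with annotated transcripts under 5000 bases. The cause was not tested. In controls, replicate 2 was set apart for Pom121, as the lowest at 102 CPM, and for Nup88, as the highest at 132 CPM.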

How the results depend on the processing

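The number of members called lower was 31, and 28 to 34 when each library was left out in turn. Over the other alternatives it was 22 (glmTreat against 1.2-fold) to 35 (length trend removed), with 26 at an adjusted p of 0.01, and 0 members were called higher in any of them. The median log2 fold change of the members was -0.57 to -0.47 with each library left out and -0.60 (library size alone) to -0.53 otherwise. Of the 15001 tested genes, 2426 were called lower and 2785 higher at an adjusted p of 0.01. By glmTreat against 1.2-fold, 1544 of them were called lower and 2127 higher. Leaving out each library called 2999 to 4864 genes lower and 3326 to 5117 higher, the highest counts without compressed replicate 6. With the threshold and null hypothesis kept, calls changed for 7 members. Nup93 was not called without a low-count filter (adjusted p = 0.0877), without compressed replicate 1, 3 or 5 (0.0513 to 0.0736) or with any 1 of the 6 control replicates left out (0.0614 to 0.0850). Nup214 and Tnpo1 were lost without control replicates as given above. Nup98, Tpr and Ipo5 were called without compressed replicate 6 and with the length trend removed, Ranbp2 with the trend removed (adjusted p = 0.00407), and Ipo5 with library size alone (0.0301). The causes were not tested. The log2 fold change of Sec13, never called, was 0.0056 to -0.066 over the alternatives that kept all libraries.

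Replicate numbers were not taken as pairs, since no source says what they share. After removal of group means, the correlation of libraries with the same number was -0.12 to 0.040. By that measure 0 libraries correlated best with their own number. The compressed mean includes replicate 6, which stood far apart, so these correlations cannot decide whether the numbers mark pairs. With replicate number as a block, 30 members were called lower, Nup93 being lost (adjusted p = 0.0591), with a median of -0.56, and 3094 genes were called lower and 3299 higher. What the test can call is limited by the spread of each gene between libraries.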
